A study of Mus musculus with 17 samples.

Results

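The 10 genes described here form the MYC and MAX network of transcription factors: Myc and Mycn, their shared partner Max, the antagonists Mxd1, Mxd3, Mxd4, Mxi1, Mnt and Mga, and the parallel partner Mlx. They were chosen by gene name; the rule uses no measured value, though it was drawn up with earlier results of these data known. All 10 were found among the 35321 genes of the count table, and all 10 passed the filter on low counts, which left 14920 genes for testing. The 17 libraries hold polyadenylated RNA of HSPC, the stem and progenitor cells that give rise to all blood, which were sorted out of marrow by flow cytometry. All mice were wild-type C57BL/6J. The PBS group (5 libraries, titled day 0) came from mice injected with phosphate-buffered saline. The remaining mice were injected with LPS (lipopolysaccharide, an outer membrane molecule of bacteria that provokes inflammation), by itself or together with a blocking antibody to the receptor of interleukin-10, and marrow was taken 24 h or 72 h later (3 libraries in each of these 4 groups). No group received the antibody without LPS. The labels give the amounts as 5 for LPS and 100 for the antibody, in micrograms in one place and in milligrams in another. Age, sex and the surface markers of the sort are not stated in the labels used here, nor is whether each library came from a separate mouse, so p-values may reflect technical spread only.

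MYC and MYCN bind DNA and switch genes on as pairs with MAX, at a short palindrome called the E-box. The MXD proteins, MXI1, MNT and MGA compete for MAX and bring repressor complexes to the same sites, while MLX pairs with glucose-sensing partners and with some MXD proteins. In blood-forming tissue, MYC drives ribosome production and growth and is tied to the exit of stem cells from rest, and MXD proteins accompany the withdrawal of maturing cells from division.

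Library totals ran from 10516722 to 16006001 counts. Levels are given as CPM, a gene's count scaled to a common library size. LPS library 1 at 24 h stood apart, with a scaling factor of 0.799 against 0.947 to 1.12 elsewhere. The progenitor markers Kit and Cd34 were abundant in every group (group means 290 to 399 CPM for Kit and 386 to 766 CPM for Cd34), while Ly6a, which encodes the marker Sca-1, lay between 60.6 and 285 CPM. Transcripts of some other cells moved with the groups. The summed level of 10 macrophage markers was 346 to 2471 CPM in the PBS libraries, 106 to 121 CPM with LPS at 24 h, 209 to 362 CPM with LPS at 72 h, and 130 to 200 and 144 to 381 CPM with antibody at 24 h and 72 h. Of those 10 markers, 10 were called lower than PBS with LPS at 24 h (median log2 change -4.28). With LPS at 72 h 0 were called by edgeR, with 10 at an unadjusted p below 0.05 (median -5.31). The sum there was mostly Csf1r, which was higher than with PBS (means 228 and 154 CPM). The other 9 were lower than with PBS, with means of 0.188 to 9.42 CPM. The summed erythroid markers were 133 to 242 CPM with PBS, 120 to 260 CPM with LPS at 24 h, 5.7 to 43.3 CPM with LPS at 72 h, 13.3 to 641 CPM with antibody at 24 h and 4.24 to 332 CPM with antibody at 72 h. Summed B-lineage markers were 381 to 1332 CPM with PBS, mostly Jchain, and 71.6 to 93.6 CPM with LPS at 24 h. They were 147 to 388 CPM with LPS at 72 h. With antibody they were 67.4 to 162 CPM at 24 h and 59.3 to 379 CPM at 72 h. Sums for T and NK cells and for mature neutrophils overlapped PBS in every group. The part of these cells in the changes described here was not tested, and a smaller number of cells of a type cannot be told apart from less RNA per cell.

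The E-box CACGTG is the sequence that MYC and MAX bind, so its occurrences near the start of 4 member genes are shown first. In RefSeq promoter windows of 300 bases on GRCm38.p6, from 250 bases before to 50 after a gene's start, 9 of the 10 members matched an entry by symbol (all but Myc), and 4 of the 9 held CACGTG (44.4%), against 2187 of 27025 genes with an entry (8.09%). The motif reads the same on both strands, so 1 search covered both. The E-box is in capitals.
Mxd4, chr5:34187912-34187941, minus strand: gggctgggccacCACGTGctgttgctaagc
Mnt, chr11:74830789-74830818, plus strand: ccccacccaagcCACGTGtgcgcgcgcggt
Mlx, chr11:101087238-101087267, plus strand: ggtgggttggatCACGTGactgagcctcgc
Max, chr12:76962234-76962263, minus strand: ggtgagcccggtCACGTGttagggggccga
The first base of the E-box lay 219 bases before the start in Mxd4, 123 in Mnt, 40 in Mlx and 3 in Max. These are matches of letters in a window, and no binding was measured. Among 48 genes listed from general knowledge as activated by MYC, 41 matched an entry and 16 of these (39.0%) held the motif. Sites of Hspd1 and Ldha, targets whose RNA is described further on, are shown for comparison.
Hspd1, chr1:55088306-55088335, minus strand: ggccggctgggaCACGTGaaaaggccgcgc
Ldha first site, chr7:46845647-46845676, plus strand: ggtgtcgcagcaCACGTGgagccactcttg
Ldha second site, chr7:46845744-46845773, plus strand: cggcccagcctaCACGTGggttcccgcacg

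Myc was the most abundant member per length of transcript in every group. Its gene lies on chromosome 15 at 61985391 to 61990374 (GRCm38, plus strand), with 2717 bases of annotated exon. In PBS libraries Myc stood at 102 ± 11 CPM per kilobase of exon (SD, n = 5), Max at 24.6 ± 2.06 and Mlx at 17.5 ± 4.26, and these 3 held ranks 1, 2 and 3 in all 5 groups. Below them in PBS came Mxd4 (10.7 ± 1.11), Mga (9.56 ± 1.44), Mnt (9.14 ± 1.22), Mycn (7.39 ± 1.70), Mxd3 (5.96 ± 0.978), Mxi1 (5.81 ± 0.776) and Mxd1 (3.14 ± 0.425, all CPM per kilobase, SD, n = 5). Neighbours from Mxd4 down to Mxi1 differed by less than the larger of their SDs, apart from Mnt and Mycn, whose difference was slightly above it. In the 4 groups given LPS, Mycn ranked last.

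**Figure D1:**
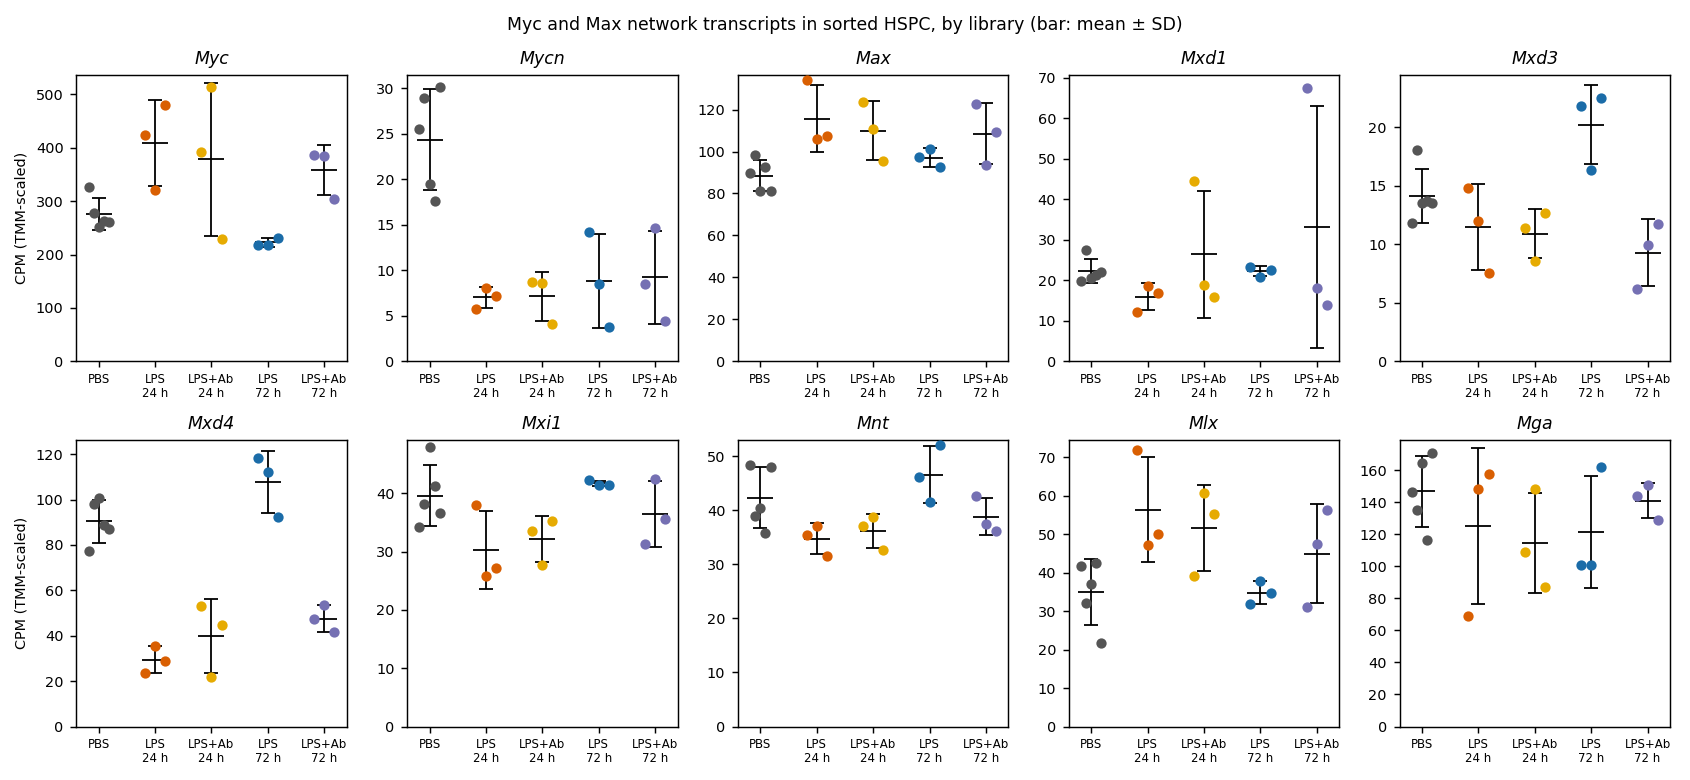
CPM of each member in each of the 17 libraries (points), with the group mean and SD (bars), for PBS, LPS and LPS with antibody (Ab) at 24 h and 72 h. Mxd4 and Myc separate the 72 h LPS libraries from the 72 h antibody libraries without overlap, and Mycn is lower in every library of mice given LPS than in every PBS library.

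The first comparison, LPS at 24 h against PBS, covers the acute phase. Members moved in both directions: Myc, Max and Mlx rose, and Mycn and Mxd4 fell. Of the 10 members, 3 were called higher and 2 lower by edgeR's quasi-likelihood test (adjusted p below 0.05), where 19.1% of all genes tested were called higher and 18.5% lower. For 42.8% of all genes tested, the PBS and LPS libraries did not overlap, in either direction. Upper-quartile scaling moved the median change of all genes from -0.03 to -0.16 on the log2 scale, gave 2030 higher of 5520 called genes against 2849 of 5616, and called 0 members higher and 4 lower. Without PBS library 2, PBS library 5 or LPS library 1, the number called was 3 in place of 5. Without LPS library 1, none of Myc, Max and Mlx was called higher (edgeR adjusted p = 0.0955, 0.116 and 0.173). Mxi1 was then called lower (edgeR adjusted p = 0.0187).

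Myc, the growth-promoting factor, was at 326, 279, 251, 262 and 261 CPM in PBS libraries 1 to 5 and at 424, 321 and 481 CPM in the LPS libraries. The groups overlapped at 1 point, LPS library 2 lying below PBS library 1. The change in Myc was 0.57 on the log2 scale (SE 0.197, edgeR adjusted p = 0.034), or 1.48-fold between the group means. This call was close to the threshold: it was kept in 2 of 8 fits that left out 1 of these libraries, with adjusted p from 0.0180 to 0.148, and in the 6 libraries numbered 1 to 3 with the replicate number as a block Myc gave 0.51 (adjusted p = 0.0649).

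Mycn, a paralog that is active in immature cells, went the other way. It stood at 25.6, 29.0, 19.4, 17.7 and 30.2 CPM in the PBS libraries and at 5.75, 8.10 and 7.21 CPM with LPS, so the groups did not overlap. Mycn fell by 1.79 on the log2 scale (SE 0.423, edgeR adjusted p = 0.0046), to a level 3.47-fold lower, and the call was kept in all 8 fits that left out a library. The macrophage markers that were high in PBS (above) fell in the same comparison. Mycl, the remaining MYC paralog, fell from 12.7 ± 3.54 to 3.30 ± 2.67 CPM (log2 change -1.93, SE 0.470, edgeR adjusted p = 0.00553).

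Max, the obligate partner, was at 81.1 to 98.3 CPM with PBS and at 134, 106 and 107 CPM with LPS, with no overlap. The change in Max was 0.39 on the log2 scale (SE 0.119, edgeR adjusted p = 0.0189). Without LPS library 1, the library that stood apart, Max changed by 0.28 (adjusted p = 0.116), and with the replicate block over 6 libraries by 0.37 (adjusted p = 0.101), so its call depended on that library and on the fit.

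Mxd4 was the member with the lowest p-value. This antagonist, found in maturing and resting cells, was at 77.3, 98.2, 101, 88.9 and 86.9 CPM in the PBS libraries and at 23.6, 35.6 and 29.0 CPM with LPS. Every LPS library lay below every PBS library. Mxd4 fell by 1.62 on the log2 scale (SE 0.232, edgeR adjusted p = 0.000487), a level 3.08-fold lower, and the call was kept in 8 of 8 fits without 1 library and in 10 of 10 fits with other settings.

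The other antagonists gave negative values that did not pass the test. Mxi1 changed by -0.39 (SE 0.152, adjusted p = 0.0539) and Mnt, which is present in dividing and resting cells alike, by -0.29 (SE 0.125, adjusted p = 0.0848) by edgeR. Upper-quartile scaling called both lower, at -0.53 (adjusted p = 0.0137) for Mxi1 and -0.42 (adjusted p = 0.0187) for Mnt. Mxd1 was at -0.48 (SE 0.427) and Mxd3, a member expressed in dividing cells, at -0.31 (SE 0.242). Voom called Mxd3 lower, at -0.62 (adjusted p = 0.0175), and the fit of the compared groups called Mxd1 lower, at -0.47 (adjusted p = 0.0459). Mga, a scaffold that also joins a Polycomb repressor complex, was at 69.0 CPM in LPS library 1 and at 148 and 158 CPM in the others, against 116 to 171 CPM with PBS (log2 change -0.23, SE 0.247).

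Mlx, the partner of the glucose-sensing factors, was at 41.7, 32.1, 37.1, 42.5 and 21.8 CPM with PBS and at 72.0, 47.3 and 49.9 CPM with LPS. The groups did not overlap, and Mlx rose by 0.69 on the log2 scale (SE 0.228, edgeR adjusted p = 0.0275). Without LPS library 1 the value was 0.48 (adjusted p = 0.173). Mlx shares 385 exon bases, 19.3% of its exon length, with Psmc3ip on the opposite strand, and Psmc3ip stood at 23.7 ± 3.46 CPM in PBS libraries (SD, n = 5) and 41.2 ± 11.4 CPM in LPS libraries (SD, n = 3). The strand setting of the counting is not stated, so reads from the shared stretch cannot be told apart.

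With LPS at 72 h, none of the 10 members was called against PBS by edgeR (2 at an unadjusted p below 0.05), where 0.0201% of all genes were called in either direction. Limma's voom and DESeq2's Wald test each called 1 member, Mycn, where they called 2170 and 171 of all genes. Mycn was at 14.2, 8.45 and 3.80 CPM, each below the lowest PBS library, and its log2 change was -1.47 (SE 0.416, edgeR adjusted p = 0.218, voom adjusted p = 0.0126, DESeq2 adjusted p = 0.0278). Myc was at 217, 219 and 232 CPM, also below every PBS library, and gave -0.31 on the log2 scale (SE 0.202, edgeR adjusted p = 0.568). Mxd4 was at 118, 112 and 92.3 CPM, overlapping PBS (log2 change 0.25, SE 0.214), and Mxd3 was at 21.8, 16.3 and 22.5 CPM against 11.8 to 18 CPM (log2 change 0.52, SE 0.235, adjusted p = 0.42).

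**Figure D2:**
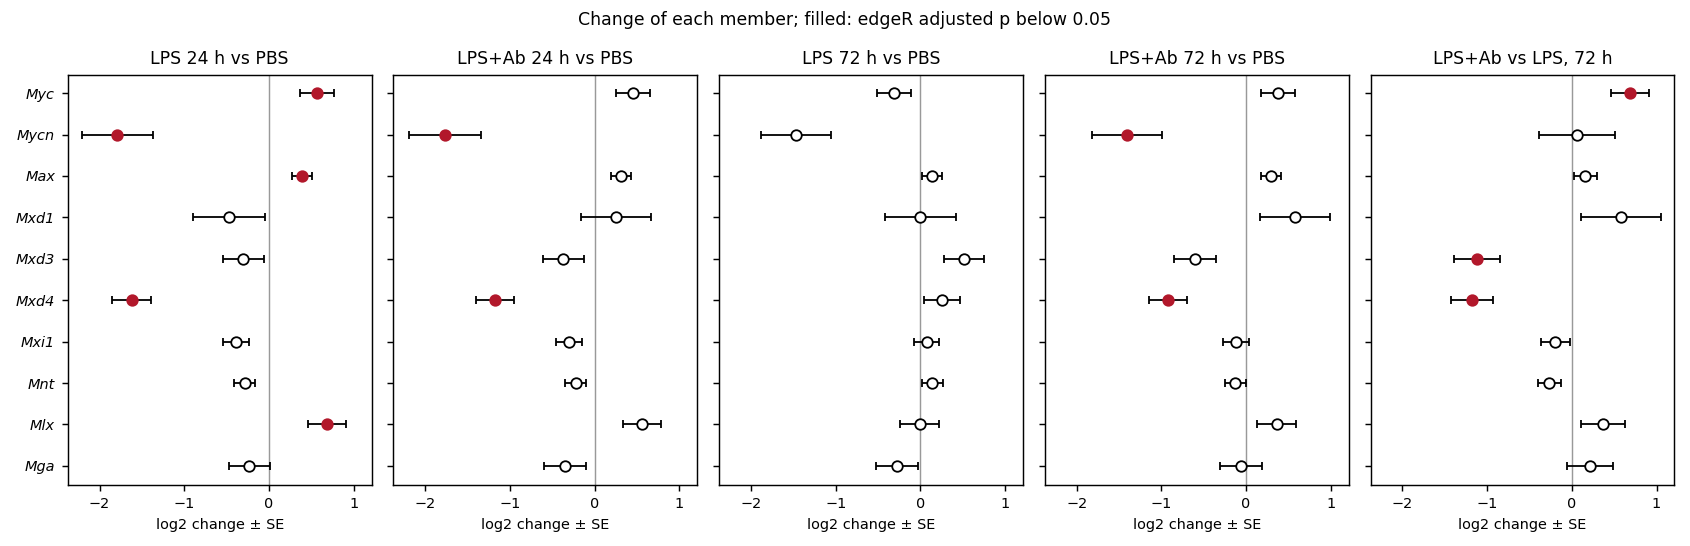
Log2 change and approximate SE of each member in 5 comparisons, with filled points for edgeR adjusted p below 0.05. Mxd4 is called lower in 4 of the 5 panels and Myc is called higher in LPS 24 h against PBS and in antibody against LPS at 72 h.

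With the antibody at 24 h, Mycn and Mxd4 were lower than with PBS, and no member was called higher. These 2 of 10 members stand beside 12.5% of all genes called lower and 11.7% called higher (1120 higher of 3448 called genes with upper-quartile scaling, against 1743 of 3605). Mycn was at 8.75, 8.59 and 4.07 CPM (log2 change -1.77, SE 0.422, edgeR adjusted p = 0.0106). Mxd4 was at 53.1, 21.7 and 44.9 CPM (log2 change -1.18, SE 0.226, edgeR adjusted p = 0.00473). Each antibody library lay below all PBS libraries for both genes, and the calls were kept in 8 of 8 fits without 1 library.

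Myc varied more in this group than in any other, at 392, 515 and 228 CPM, so that the libraries lay on both sides of the PBS range. The log2 change of Myc was 0.46 (SE 0.198, edgeR adjusted p = 0.102). Without antibody library 3 it was 0.75 (adjusted p = 0.00946), and without library 2 it was 0.17 (adjusted p = 0.572). Library 3 also had the lowest summed erythroid markers of its group, 13.3 CPM. Library 2, with the highest Myc, had 143 CPM and library 1 had 641 CPM, so the order of the libraries differed from that for Myc. Max was at 0.31 (SE 0.119, adjusted p = 0.0667) and Mlx at 0.56 (SE 0.228, adjusted p = 0.0847).

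Set directly against LPS at 24 h, the antibody gave no call among the members. The share of all genes called was 0%, with 273 genes at an unadjusted p below 0.05 and 1 gene called by DESeq2, and no member was under 0.05 unadjusted. Myc stood at -0.11 (SE 0.223), Mycn at 0.02 (SE 0.450) and Mxd4 at 0.44 (SE 0.245) on the log2 scale. The Mxd4 libraries overlapped, at 23.6 to 35.6 CPM without and 21.7 to 53.1 CPM with the antibody.

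At 72 h the antibody group still differed from PBS in the same 2 genes. Mycn was at 8.49, 14.7 and 4.46 CPM (log2 change -1.41, SE 0.415, edgeR adjusted p = 0.0372) and Mxd4 at 47.4, 53.6 and 41.7 CPM (log2 change -0.93, SE 0.224, edgeR adjusted p = 0.0184). That is 2 of 10 members lower and 0 higher, beside 6.43% of all genes called lower and 6.81% called higher (659 higher of 2007 called genes with upper-quartile scaling, against 1016 of 1975). Leaving out PBS library 1, 2, 3 or 5 left 1 of these calls. The Mycn call was kept in 2 of 8 fits without 1 library and the Mxd4 call in 6 of 8; without antibody library 1 the adjusted p was 0.111 for Mycn and 0.0645 for Mxd4, and without library 3 it was 0.135 and 0.0764. Myc, at 387, 385 and 305 CPM, gave 0.38 (SE 0.198, adjusted p = 0.2), its 3 libraries overlapping PBS at 1 point.

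The direct comparison at 72 h sets LPS with the antibody against LPS by itself at the later time. No group was labelled as given a control antibody, so blockade of the receptor cannot be told apart from other effects of an antibody. With the antibody, Myc was higher and the antagonists Mxd3 and Mxd4 were lower than with LPS by itself. This is 1 of 10 members higher and 2 lower, beside 8.64% and 6.48% of all genes (968 higher of 2283 called genes with upper-quartile scaling, against 1289 of 2256). Myc was at 387, 385 and 305 CPM against 217, 219 and 232 CPM, with no overlap (edgeR adjusted p = 0.0497 for a change of 0.69, SE 0.225, on the log2 scale). The groups did not overlap for 33.2% of all genes tested, in either direction. The Myc call was kept in 1 of 6 fits without 1 library, where the change ran from 0.67 to 0.79 and the adjusted p from 0.0487 to 0.144. It was kept in 3 of 8 other settings, with an adjusted p of 0.0545 with DESeq2 size factors, 0.0729 with upper-quartile factors, 0.0563 with no filter and 0.073 with the replicate block over libraries numbered 1 to 3. Without LPS library 1 or antibody library 1, 1 member was called in place of 3.

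Mxd4 was at 47.4, 53.6 and 41.7 CPM with the antibody against 118, 112 and 92.3 CPM, a level 2.26-fold lower (log2 change -1.18, SE 0.245, edgeR adjusted p = 0.00658). Its call was kept in 6 of 6 fits without 1 library and in 8 of 8 with other settings. Mxd4 shares 514 exon bases, 6.06% of its exon length, with the antisense gene Gm42846, which stood at 5.74 ± 0.944 CPM with the antibody and 15 ± 4.13 CPM without it (SD, n = 3 each). Mxd3 was at 6.14, 9.90 and 11.7 CPM against 21.8, 16.3 and 22.5 CPM (log2 change -1.12, SE 0.272, edgeR adjusted p = 0.0133), again with no overlap. Without LPS library 1 or antibody library 1 the adjusted p of Mxd3 was 0.0576 or 0.0601. Mxd3 overlaps the more abundant Prelid1 by 105 exon bases on the opposite strand.

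Mxd1, an antagonist induced in maturing myeloid cells, was uneven among the antibody libraries. It was at 44.5 CPM in library 1 at 24 h and at 67.6 CPM in library 1 at 72 h, while the other antibody libraries had 13.8 to 18.9 CPM and the PBS libraries 19.8 to 27.4 CPM. Against LPS at 72 h the log2 value of Mxd1 was 0.58 (SE 0.469, adjusted p = 0.414). Library 1 also had the highest summed erythroid markers of each antibody group, 641 and 332 CPM. The library with most Mxd1 had the highest erythroid sum with LPS at 72 h too, but not with PBS or with LPS at 24 h. A link was not tested.

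Between 24 h and 72 h of LPS, Myc fell, and the antagonists Mxd4, Mxd3, Mnt and Mxi1 rose: 1 of 10 members lower and 4 higher, beside 16.4% and 14.7% of all genes (2783 higher of 4702 called genes with upper-quartile scaling, against 2192 of 4646). Myc fell by 0.88 on the log2 scale (SE 0.225, edgeR adjusted p = 0.00869), from 321 to 481 CPM down to 217 to 232 CPM, and this call was kept in all 6 fits without 1 library and in 8 of 8 with other settings. Mxd4 rose 3.66-fold (log2 change 1.87, SE 0.250, edgeR adjusted p = 0.000192). Mxd3 changed by 0.83 (SE 0.269, adjusted p = 0.0295), Mnt by 0.42 (SE 0.139, adjusted p = 0.0304) and Mxi1 by 0.46 (SE 0.169, adjusted p = 0.0468) by edgeR, calls kept in 2, 3 and 1 of 6 fits without 1 library. The adjusted p of Mxd3 reached 0.133 without LPS library 3 at 24 h, that of Mnt 0.141 without LPS library 3 at 72 h and that of Mxi1 0.169 without LPS library 3 at 24 h. Without LPS library 3 at 24 h, or LPS library 1 or 3 at 72 h, 2 members were called in place of 5. Mlx was at -0.69 (SE 0.260, adjusted p = 0.0535).

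With the antibody, no member was called between 24 h and 72 h by edgeR, DESeq2 or voom, and 0 were under an unadjusted p of 0.05. The share of all genes called was 0%, with 635 at an unadjusted p below 0.05. Mxd4 stood at 0.25 (SE 0.244) and Myc at -0.08 (SE 0.223) on the log2 scale. An interaction term tested whether the antibody effect differed between 24 h and 72 h, and it was called for 1 of the 10 members, Mxd4: -1.62 (SE 0.346, edgeR adjusted p = 0.0157), beside 2.32% of all genes called lower and 4.03% higher (435 higher of 875 called genes with upper-quartile scaling, against 601 of 947). Without LPS library 1 at 72 h its adjusted p was 0.0526, and with the 4 LPS groups fitted by themselves 0.0584. Mxd3 gave -1.06 (SE 0.382, adjusted p = 0.104) and Myc 0.80 (SE 0.317, adjusted p = 0.135). Myc passed the test without antibody library 2 at 24 h, at 1.09 (adjusted p = 0.029), which made 2 calls in place of 1.

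The comparisons above share libraries: PBS enters 4 of them, and each group given LPS enters 4, the interaction included. Side by side, the log2 values of Mxd4 were -1.62 and -1.18 against PBS at 24 h without and with the antibody, and 0.25 and -0.93 at 72 h. Those of Myc were 0.57, 0.46, -0.31 and 0.38 in the same order.

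Myc and Mxd4 were also set against each other within a library, a view chosen after their values had been seen. The ratio of Myc CPM to Mxd4 CPM was 3.10 ± 0.657 in the PBS libraries (SD, n = 5), 14.5 ± 4.81 in those with LPS at 24 h, 12.1 ± 10.2 with antibody at 24 h, 2.1 ± 0.363 with LPS at 72 h and 7.55 ± 0.536 with antibody at 72 h (SD, n = 3 each). At 72 h the antibody libraries ran from 7.17 to 8.17, the LPS libraries from 1.84 to 2.51 and the PBS libraries from 2.50 to 4.22. The antibody libraries thus lay above both of those groups, while the LPS and PBS ranges touched. These ratios are not per length, so they serve only to compare libraries.

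**Figure D3:**
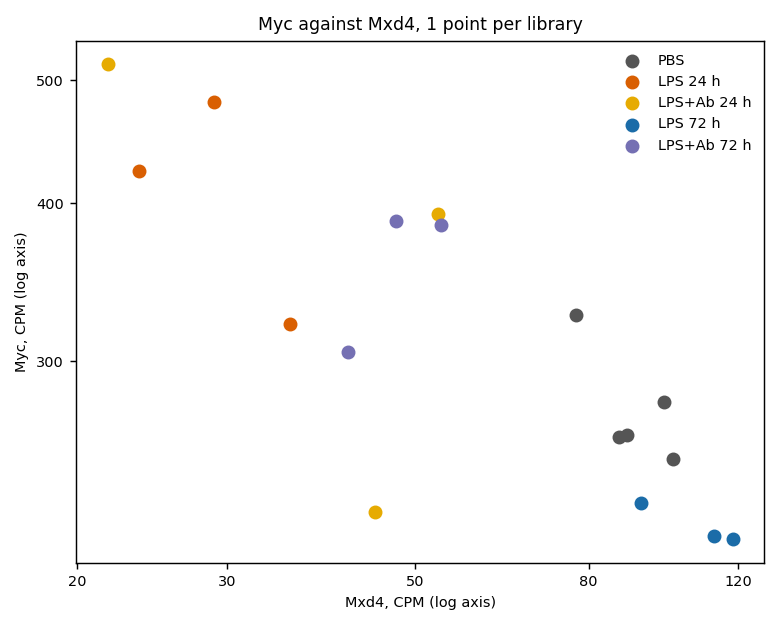
CPM of Myc (vertical, log axis) against CPM of Mxd4 (horizontal, log axis), 1 point per library, coloured by group. The LPS libraries at 72 h sit at the lower right with PBS, and the antibody libraries at 72 h (Mxd4 41.7 to 53.6 CPM, Myc 305 to 387 CPM) sit apart from both.

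The RNA of 48 genes known as activated by MYC was examined next. These genes serve ribosome assembly, nucleotide and polyamine synthesis, glycolysis and protein folding. With LPS at 24 h, 45 of the 48 were called higher and 1 lower, beside 19.1% and 18.5% of all genes. The median log2 change was 1.00 against -0.03 for all genes tested. The 1 lower gene was Tert, which encodes the catalytic subunit of telomerase and stood at 6.32 ± 1.48 CPM with PBS and 2.53 ± 0.909 CPM with LPS, and the 2 not called were Ccnd2 (0.03, SE 0.224) and Prmt3 (0.06, SE 0.124) (these 3 are named because their number is small). For 45 of the 48, every LPS library lay above every PBS library, as it did for 20.6% of all genes.

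Odc1, which starts polyamine synthesis, was at 328, 162, 187, 233 and 208 CPM with PBS and at 904, 495 and 602 CPM with LPS (log2 change 1.58, SE 0.227, edgeR adjusted p = 0.000487). Srm, which makes spermidine in the same pathway, rose by 1.70 (SE 0.290), Ldha, which makes lactate from pyruvate, by 1.59 (SE 0.200), and Hspd1, a mitochondrial chaperonin, by 1.55 (SE 0.226). With the antibody at 24 h, 39 targets were called higher and 1 lower (median 0.76), beside 11.7% and 12.5% of all genes. Without antibody library 2 the number of targets called was 17 in place of 40. The targets whose increase was greatest there were Tfrc, the transferrin receptor (1.58, SE 0.400), Ldha (1.30, SE 0.200), Noc4l, a ribosome assembly factor (1.21, SE 0.234), and Srm (1.18, SE 0.291). Tfrc is also abundant in red cell precursors, whose summed markers reached 641 CPM in this group.

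**Figure D4:**
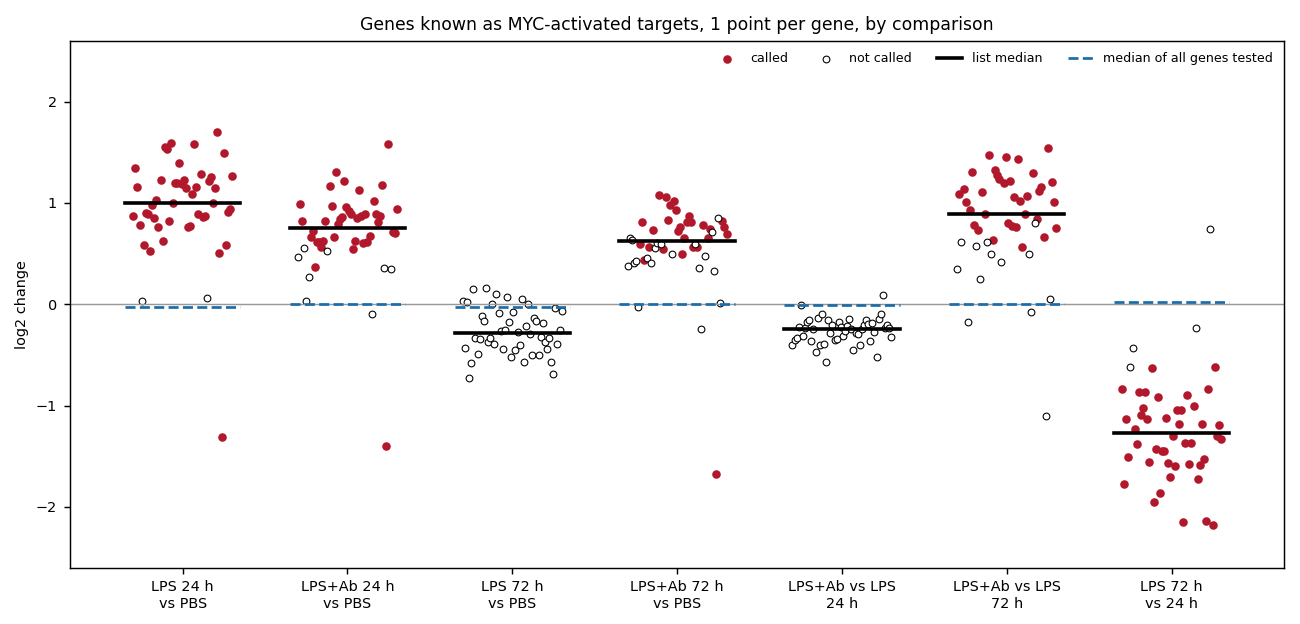
Log2 change of each of the 48 MYC-activated targets (points, filled where edgeR called the gene) in 7 comparisons, with the list median (solid bar) and the median of all genes tested (dashed). The list median is 1.00 for LPS at 24 h, -0.28 for LPS at 72 h and 0.62 for antibody at 72 h, each against PBS.

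At 72 h the targets differed between the LPS groups. With LPS by itself 0 of the 48 were called against PBS by edgeR or DESeq2 (median -0.28, 14 at an unadjusted p below 0.05), whereas voom called 12 lower. Of all genes, edgeR called 3, DESeq2 171 and voom 2170. With the antibody 27 were called higher and 1 lower (median 0.62), beside 6.81% and 6.43% of all genes. The number of targets called fell to 12 without antibody library 3. Hspd1 rose by 1.08 (SE 0.227), Ldha by 1.06 (SE 0.201), Noc4l by 1.02 (SE 0.234) and Ncl, the nucleolar protein nucleolin, by 0.98 (SE 0.144).

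In the direct comparison at 72 h, 35 of 48 were called higher with the antibody and 0 lower, beside 8.64% and 6.48% of all genes. The median was 0.89 against 0.01 for all genes. For 39 of 48 every antibody library lay above every LPS library, as for 17.1% of all genes. Odc1 was at 412, 359 and 451 CPM with the antibody and at 149, 167 and 136 CPM without it (log2 change 1.43, SE 0.265, edgeR adjusted p = 0.00383). Nolc1, a nucleolar chaperone, rose by 1.45 (SE 0.203), Hspd1 by 1.48 (SE 0.264) and Tfrc by 1.55 (SE 0.469).

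From 24 h to 72 h of LPS, 44 of 48 targets were called lower and 0 higher (median -1.27), beside 16.4% and 14.7% of all genes. For 46 targets every 72 h library lay below every 24 h library, as for 23% of all genes. With the antibody 0 were called over the same interval (median -0.14, 0 at an unadjusted p below 0.05), and 0 were called between antibody and LPS at 24 h (median -0.24, 2 unadjusted). The interaction of antibody and time was called for 32 of 48, all higher (median 1.17), beside 4.03% of all genes called higher. The greatest values were those of Odc1 (1.88, SE 0.371, edgeR adjusted p = 0.0126) and Hspd1 (1.87, SE 0.369, adjusted p = 0.0127), followed by Nolc1 (1.68, SE 0.282) and Srm (1.68, SE 0.473). The number of targets called was 21 with the 4 LPS groups fitted by themselves and 21 without LPS library 1 at 24 h. It was 20 and 16 without antibody library 1 or 3 at 24 h, and 17 without LPS library 1 at 72 h. Over 10 genes of the G2/M phase, which mark dividing cells, 2 were called higher with LPS at 24 h (Birc5 and Bub1), a share close to the 19.1% of all genes, and 0 in the other 8 comparisons by edgeR (0 to 2 at an unadjusted p below 0.05).

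Cofactors of MYC were listed as 13 genes. With LPS at 24 h, 5 were called higher and 1 lower, beside 19.1% and 18.5% of all genes. Ruvbl2 (1.13, SE 0.169) and Ruvbl1 (0.98, SE 0.165), paired ATPases of chromatin remodelling complexes, and the acetyltransferase Kat2a (0.66, SE 0.117) rose. Bin1, which binds MYC and restrains it, fell by 0.71 (SE 0.190), being at 68.6 ± 7.44 CPM with PBS (SD, n = 5) and at 42.1 ± 7.30 CPM after LPS (SD, n = 3). With antibody at 24 h, 4 were called higher and Bin1 lower, beside 11.7% and 12.5% of all genes.

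At 72 h no cofactor was called against PBS with LPS by itself (1 at an unadjusted p below 0.05, Bin1 at 0.50), and with the antibody Ruvbl2 (0.58, SE 0.170) and Wdr5 (0.37, SE 0.106), an adaptor that holds MYC on chromatin, were called higher and Bin1 lower (-0.69, SE 0.190), beside 6.81% and 6.43% of all genes. Directly, antibody against LPS at 72 h gave 4 higher and 1 lower, beside 8.64% and 6.48% of all genes. Bin1 was at 34.6, 42.4 and 50.9 CPM against 117, 91.6 and 82.7 CPM (log2 change -1.19, SE 0.209, edgeR adjusted p = 0.00302). Mycl was also lower, at 3.20, 6.54 and 7.43 CPM with the antibody and 22.9, 17.1 and 30.1 CPM without it (log2 change -2.03, SE 0.495, edgeR adjusted p = 0.0141). For both genes the groups did not overlap, as for 33.2% of all genes tested.

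Of 10 corepressor genes through which MXD proteins and MNT act, 5 were called higher with LPS at 24 h and 0 lower (19.1% and 18.5% of all genes), among them Sap30 (0.81, SE 0.167) and Sap18 (0.75, SE 0.155), subunits of the SIN3 complex, and the deacetylase Hdac2 (0.52, SE 0.143). With antibody 2 were called higher at 24 h (11.7% of all genes) and 0 at 72 h (6.81%; 3 at an unadjusted p below 0.05). Of 12 genes for the turnover of MYC protein, 2 were called higher with LPS at 24 h and 1 lower, shares no greater than those of all genes (19.1% and 18.5%). Usp36, a nucleolar deubiquitinase, rose (0.44, SE 0.154), and Btrc, a ubiquitin ligase subunit, fell (-0.46, SE 0.152). Fbxw7, the ligase subunit that marks MYC for degradation, was among the 9 not called. At 72 h Usp36 was called higher with the antibody than without it (0.65, SE 0.176), as 1 of the 12, beside 8.64% of all genes.

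MGA works within a Polycomb complex, of which 10 partners were listed. With LPS at 24 h 5 were called higher and 2 lower, beside 19.1% and 18.5% of all genes. L3mbtl2 (0.65, SE 0.132) and Pcgf6 (0.58, SE 0.187), core subunits, rose, as did Tfdp1 (0.64, SE 0.169), while Tfdp2 fell (-1.08, SE 0.302). At 72 h 3 of the 10 were higher with the antibody than without it (8.64% of all genes), L3mbtl2 (0.71, SE 0.151), Pcgf6 (0.66, SE 0.214) and Yaf2 (0.60, SE 0.146), while Mga itself gave 0.22 (SE 0.275).

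Txnip and Arrdc4 are targets of MLX and its glucose-sensing partners. Both fell with LPS at 24 h, where 18.5% of all genes were called lower. Txnip fell by 1.41 (SE 0.386, edgeR adjusted p = 0.0106) and Arrdc4 by 0.66 (SE 0.222, adjusted p = 0.0302), while Mlx rose. Txnip was at 272 to 480 CPM with PBS and at 126, 127 and 189 CPM with LPS, without overlap, as for 42.8% of all genes tested. No later comparison called either gene, and the partner gene Mlxip was not called in any. Of 5 tested genes known as repressed by MYC, 1 was called with LPS at 24 h: the cell cycle inhibitor Cdkn1b, which fell by 0.80 (SE 0.216, edgeR adjusted p = 0.00958). That share was close to the 18.5% of all genes called lower. From 24 h to 72 h of LPS, 2 of the 5 were called higher, Cdkn1b (1.22, SE 0.238) and Ndrg1 (0.55, SE 0.194), beside 14.7% of all genes.

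Genes whose levels followed a member were sought over the 17 libraries among 7453 genes at or above the median level, by Pearson's r of log2 CPM. These values describe libraries that share group differences, so they carry no test. Myc was followed by Ccdc137 (r = 0.945), Tfrc (0.940), Usp36 (0.931), Aen (0.931) and Slc25a22 (0.924). Mycn was followed by the macrophage gene C1qc (0.911), which was at 84.2 ± 89.5 CPM in PBS (SD, n = 5) and at group means of 1.92 to 7.99 CPM elsewhere. Mxd4 was followed by Pcmtd2 (0.981) and Mettl7a1 (0.979), Mxd3 by Cst3 (0.930) and Rab11b (0.926), Max by Chmp4b (0.938) and Zcrb1 (0.938), and Mlx by Pgd (0.967) and P4hb (0.961). Mxd1 went with Gm17334 (0.961) and Stat2 (0.957), a mediator of interferon signals that ranged from 39.5 to 249 CPM among the 72 h antibody libraries. Mga went with Smg1 (0.970) and Ankhd1 (0.957), Mnt with Slc9a8 (0.920) and Kbtbd2 (0.826), and Mxi1 with S100a11 (0.847) and Tcn2 (0.832).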

How the data were processed

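The authors deposited 1 table of raw read counts per gene symbol, 35321 genes in 17 columns, each matched to a sample by its label; 0 columns were unmatched. The submitters' processing notes name HISAT2 2.2.0, Subread, featureCounts 2.1.1, R 4.3.2, DESeq2 and the build GRCm38, with no role or order. The annotation, the strand setting and the treatment of multi-mapped reads are not given in the sources used here, so counts of overlapping genes are uncertain.

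The tests used edgeR 4.0.16 under R 4.3.3. A filter (filterByExpr, minimum count 10, minimum total 15) left 14920 genes holding 99.9% of the counts. All 17 libraries in 5 groups entered 1 fit with trimmed-mean (TMM) scaling and the quasi-likelihood test, with Benjamini-Hochberg adjustment over all genes tested within each of 9 comparisons. Genes were called at an adjusted p below 0.05. The SE is approximate: it is the size of the log2 change over the root of F. CPM values use the TMM-scaled total, and values per kilobase use GENCODE M21 exon lengths on GRCm38. The scripts were tested on simulated data. No pair of libraries of the same group agreed within sampling noise, and pairs across groups were not checked.

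The members and gene lists were chosen with earlier results of these data known, and the lists come from general knowledge. All 10 members are named; from every other list, the rule named per comparison up to 4 called genes with the greatest change at a mean of 5 CPM or more, or 1 uncalled gene. Genes outside the rule are identified where they appear. Likeness named 5 genes for Myc and 2 for every other member. Some genes that these rules name are not reported here.

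Same-numbered libraries of 2 groups had deviations from the group means that correlated from -0.415 to 0.723 over 30 pairs (median 0.0773). Only for PBS with LPS at 24 h was every pair above 0.1 (0.191, 0.188 and 0.158). The pairing comes from the data, not from the labels, and a fit of those 6 libraries with the replicate block was added after that was seen.

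Alternatives were DESeq2 size factors, upper-quartile factors, no filter on low counts, the DESeq2 1.42.0 Wald test, limma 3.58.1 voom with sample quality weights, a fit of the compared groups only, libraries numbered 1 to 3 with and without the replicate block, and leaving out each library.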

Additional observations from a re-analysis of the deposited data

Results flagged for a closer look

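By edgeR's interaction test, the effect of the antibody (against LPS at the same time) differed between 72 h and 24 h for Mxd4. It also differed for 32 of the 48 MYC-activated targets, 5 of 13 MYC cofactors and 1 of 10 MGA partners. Of all genes, 4.03% were called higher and 2.32% lower. Those named by the rule on genes are given here. The difference of the log2 effects was -1.62 for Mxd4 and -1.25 for Bin1, both lower with the antibody at 72 h. It was 1.19 for Ruvbl2, 0.93 for Ruvbl1, 0.73 for Kat2a and 0.80 for L3mbtl2. Among MYC-activated targets it was 1.88 for Odc1, 1.87 for Hspd1, 1.68 for Nolc1 and 1.68 for Srm. In the PBS group, 1 library stood far from the other 4 for the corepressor gene Hdac2, at 104 CPM (median 120 CPM). Chance alone sets about 1 in 20 groups apart in this way.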

How the results depend on the processing

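Over 27 alternative settings, 1420 values of the 10 members were recomputed. Of these, 1328 kept their side of the threshold, 70 lost a call, 22 gained one and 0 called values reversed. Over the members and the other named genes, 87 values changed sign while not called under either setting (up to 0.73 in size). Those of members are among the 1328. For LPS at 24 h against PBS, 5 members were called, among 5616 of all genes. Voom called 8, among 6828 of all genes. The libraries numbered 1 to 3 gave 2 with and 2 without the replicate block. The 6 paired libraries gave 3 with and 3 without it, and leaving out 1 library gave 3 to 6. For LPS at 72 h, DESeq2 and voom each called 1 member against 0, and voom called 12 targets. They called 171 and 2170 of all genes, against 3. For antibody at 24 h against PBS, voom called 4 members against 2, among 4211 of all genes against 3605. Leaving out 1 library there gave 2 to 4 members and 17 to 42 targets against 40. For antibody at 72 h against PBS, libraries numbered 1 to 3 gave 1 member with the block and 0 without it against 2, and 11 and 14 targets against 28; leaving out 1 library gave 0 to 3 members and 12 to 33 targets. For antibody against LPS at 72 h, leaving out 1 library gave 1 to 3 members. For LPS at 72 h against 24 h, no filter gave 3 members against 5, and leaving out 1 library 2 to 5. For the antibody by time, the fit of the compared groups and the replicate block each gave 0 members against 1, and leaving out 1 library 0 to 2; targets were 21 in the fit of the compared groups and 16 to 36 with 1 library left out, against 32. The causes of these shifts were not tested. Upper-quartile factors shifted the median of all genes by over 0.1 in LPS or antibody at 24 h against PBS, in LPS at 72 h against 24 h, and in the antibody by time.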
